A study of Mus musculus with 2 samples.

Results

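Imprinted growth genes were followed here across the cells of the mouse mammary gland: H19, Igf2, Dlk1, Meg3, Peg3, Zim1, Plagl1, Cdkn1c, Grb10 and Mest. The 10 genes were chosen by name out of the 32285 counted, and each symbol stood once in the gene list. All 10 had UMIs (unique molecular identifiers, each standing for 1 captured RNA molecule) in both libraries. The first library, called KO, came from mice with a Gpm6a deletion on the C57BL/6 background, and the other, called WT, from wild-type C57BL/6 mice. In both, the 4th mammary gland of virgin females aged 6 to 8 weeks was digested, live (DAPI-negative) cells were sorted and the 3′ ends of their transcripts were counted per cell in droplets. The labels name 3 littermates of each genotype but give 1 library per genotype and do not say whether the animals were pooled. The difference between genotypes therefore has no replicate check, no test was possible, and every interval below is an exact 95% interval that covers counting error only. For a count of 0, the level that 3 counts would give is printed as the limit.

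An imprinted gene is read mainly from the copy inherited from 1 parent, under the control of DNA methylation set down in the egg or sperm. Most genes of this kind act on growth before birth, with paternally read genes such as Igf2, Dlk1, Peg3, Plagl1 and Mest and maternally read genes such as H19, Cdkn1c, Grb10, Meg3 and Zim1. Many are turned down in tissues after birth and stay on in stromal, vascular and stem or progenitor cells. Counts per gene do not tell the parental copies apart, so imprinting itself was not measured here.

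Several members share a locus, and in the annotation of genome build GRCm38 (mm10) H19 lies at chr7:142575529-142578143 and Igf2 at chr7:142650766-142666816, both on the minus strand, with Cdkn1c farther along the same chromosome at chr7:143458339-143461050. Peg3, at chr7:6703892-6730431, and Zim1, at chr7:6671269-6696450, are neighbours on the minus strand. Dlk1, at chr12:109452823-109463336, and Meg3, at chr12:109541001-109571726, are neighbours on the plus strand. Plagl1 (chr10:13060504-13131694), Grb10 (chr11:11930508-12038683) and Mest (chr6:30723547-30748465) stand apart. H19 and Meg3 are long noncoding RNAs, and the other members code for proteins. The H19 transcript holds the precursor of a microRNA, whose mature forms are shown because they are the product of that transcript with a defined sequence. They are given from RefSeq, build GRCm38.p6, minus strand, at chr7:142577112-142577133 for the 5p form and chr7:142577078-142577099 for the 3p form, 5′ to 3′, with the seed, bases 2 to 8, in capitals.
mmu-miR-675-5p: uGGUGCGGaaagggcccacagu
mmu-miR-675-3p: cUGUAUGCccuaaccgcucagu
The mature microRNAs carry no poly(A) tail and were not measured in these libraries. The start regions of Meg3, Peg3 and Zim1, 250 bases before to 50 bases after the RefSeq start, are shown because Peg3 and Zim1 are neighbours that were both higher in KO fibroblasts and Meg3 was found in most fibroblasts. The windows lie at chr12:109540746-109541045 (plus strand), chr7:6730370-6730669 (minus strand) and chr7:6696383-6696682 (minus strand). Capitals mark the letters searched on both strands, namely TGACGTCA (the cyclic AMP response element), TATAAA (the TATA box), GGGCGG (the GC box) and GGGGCCCC (a sequence bound by Plagl1 protein).
Meg3: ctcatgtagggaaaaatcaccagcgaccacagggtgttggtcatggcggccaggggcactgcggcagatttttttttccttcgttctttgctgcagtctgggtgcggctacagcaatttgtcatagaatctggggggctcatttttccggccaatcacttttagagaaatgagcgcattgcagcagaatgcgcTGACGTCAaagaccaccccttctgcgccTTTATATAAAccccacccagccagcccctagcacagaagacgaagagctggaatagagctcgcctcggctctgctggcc
Peg3: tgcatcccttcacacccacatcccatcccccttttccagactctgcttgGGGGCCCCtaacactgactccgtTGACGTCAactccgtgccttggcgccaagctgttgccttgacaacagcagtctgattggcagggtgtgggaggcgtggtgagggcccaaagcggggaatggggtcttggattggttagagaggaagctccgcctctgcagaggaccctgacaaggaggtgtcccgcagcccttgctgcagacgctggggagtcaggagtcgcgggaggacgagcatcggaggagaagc
Zim1: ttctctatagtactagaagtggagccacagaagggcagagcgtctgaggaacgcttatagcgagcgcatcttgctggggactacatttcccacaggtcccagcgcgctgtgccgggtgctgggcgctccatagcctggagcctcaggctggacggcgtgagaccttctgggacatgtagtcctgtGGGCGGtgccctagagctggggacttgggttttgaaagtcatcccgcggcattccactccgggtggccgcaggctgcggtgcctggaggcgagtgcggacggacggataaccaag
TGACGTCA stood once each in the Meg3 and Peg3 windows and in 1.79% of all 32851 promoter windows of that length. TATAAA matched on both strands of the Meg3 window, where the 2 matches overlap by 2 bases, and in 13.6% of all windows. GGGGCCCC stood in the Peg3 window and in 1.08% of all windows, and GGGCGG in the Zim1 window and in 35.7% of all windows. AANATGGC (the core bound by YY1) was searched in the same way, stood in 6.05% of all windows, and had no match in these 3 windows. A match describes letters and does not show that a factor binds.

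The KO library held 10452 cells after filtering, with a median of 9507 UMIs per cell, and the WT library 10777 cells, with a median of 11130 UMIs. Cells were grouped by expression into 38 clusters, which were named by marker genes, so that each class is one of cells like the named type (fibroblast-like, basal-like and so on; the suffix is dropped below). The labels call the sorted cells epithelial, but fibroblasts made up 43.7% of KO cells and 35.5% of WT cells, and the basal, luminal progenitor and hormone-sensing luminal classes made up 30.7% of KO cells and 30.2% of WT cells. Fibroblasts numbered 4570 in KO and 3823 in WT and fell into 6 clusters, called here by a leading gene: Adam12 (1177 KO and 1112 WT cells), Stra6 (1216 and 1002), Pi16 (1129 and 760), Vit (818 and 756), Thbs4 (120 and 140) and Ifit1 (110 and 53). A further cluster led by Rspo3 carried 4 of 7 fibroblast markers, was left unnamed, and held 15 KO cells and 659 WT cells; the keratinocyte and mesothelial classes held 0 KO cells and 300 and 29 WT cells. The libraries shared 21 cell barcodes among the cells analysed. Gpm6a itself had 29 UMIs in KO cells and 288 in WT cells, 185 of them in the WT mesothelial cells that had no KO counterpart, and the labels do not say which part of the gene was deleted, so its 3′ counts do not check the labels.

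Fibroblasts held most of the UMIs of the members in both libraries. Of the 71189 UMIs of the 10 members in KO cells, 86.9% (86.6 to 87.1%) lay in fibroblasts, and of the 105787 in WT cells, 72.4% (72.1 to 72.7%), while fibroblasts held 30.1% of all UMIs in KO cells and 27.7% in WT cells. Of the 10 members, 9, all but Igf2, were at least 2-fold higher in fibroblasts than in all other cells outside the Rspo3 cluster in both libraries, as were 9.88% of the 18685 genes measured. The classes were formed from the same cells' expression, so this is a description and not a test. Igf2 was 1.22 higher on the log2 scale in KO and 0.90 higher in WT. Dlk1 had the lowest share of its UMIs in fibroblasts, 58.7% in KO and 26.0% in WT, and 57.4% of its WT UMIs lay in the Rspo3 cluster. Zim1 had the highest share, with 95.9% of its UMIs there in KO cells and 88.4% in WT cells. At an equal depth of 3000 UMIs per cell, a fibroblast held UMIs of a median of 2 members in both libraries, against a median of 0 in the basal, luminal progenitor and hormone-sensing luminal classes.

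**Figure D1:**
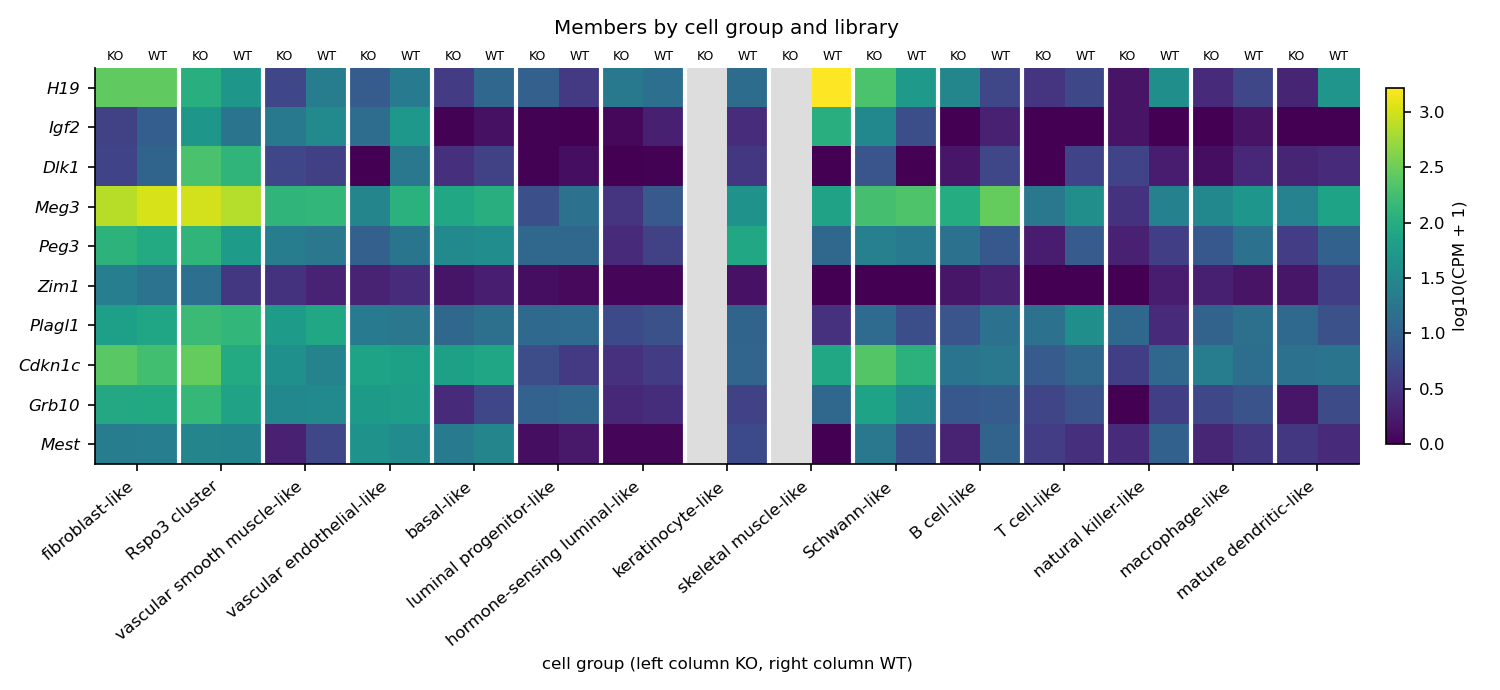
Level of each member (rows) by cell group (columns, KO left and WT right) as log10(CPM + 1), where CPM is counts per 1000000 UMIs of the summed cells; grey marks groups with fewer than 10 cells. Fibroblasts are high for most members, H19 is highest in WT skeletal muscle-like cells, and Dlk1 is highest in the Rspo3 cluster.

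**Figure D2:**
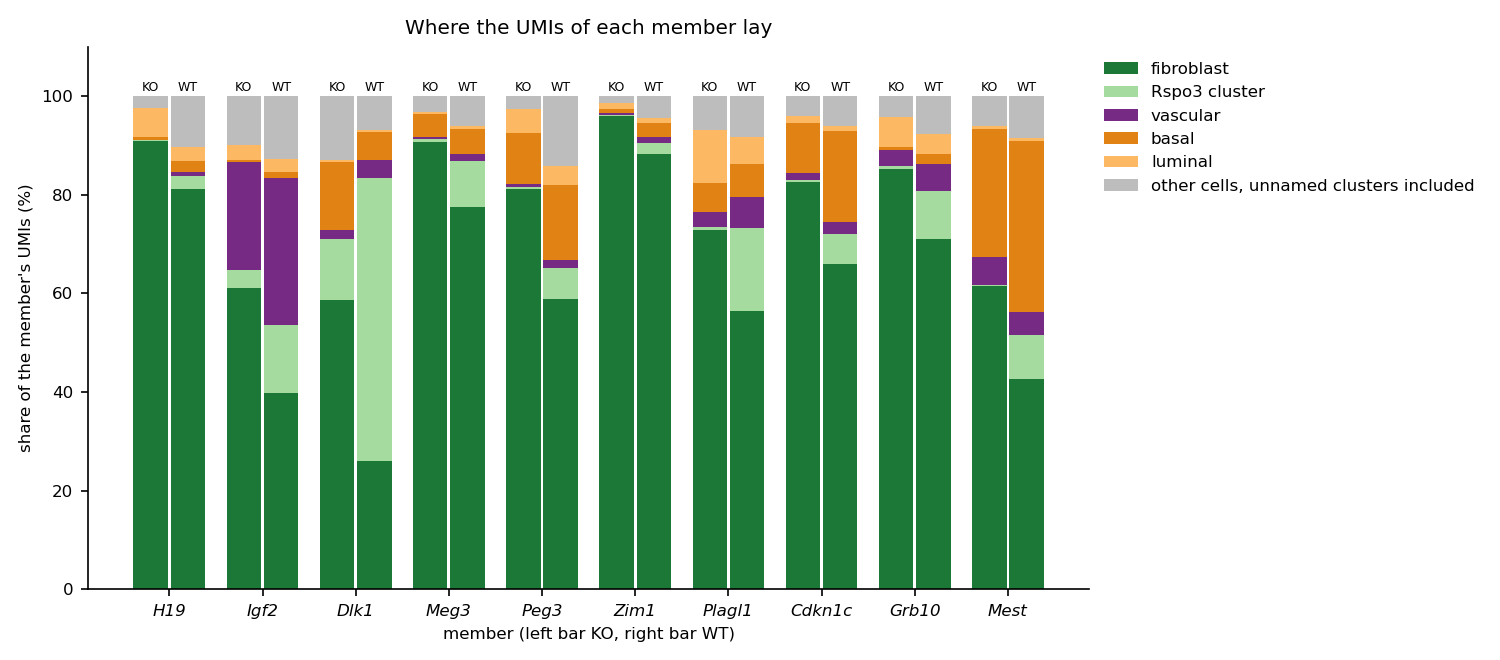
Share of each member's UMIs by cell group, in percent, with KO in the left bar and WT in the right bar of each pair. Fibroblasts hold the larger part of every bar but those of Igf2, Dlk1 and Mest in WT, where they hold 39.8%, 26.0% and 42.7%.

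H19, a noncoding RNA that restrains growth, stood at 271 CPM (266 to 276) in KO fibroblasts and 266 CPM (261 to 271) in WT fibroblasts. The levels of the libraries overlapped within counting error and the log2 ratio was 0.03. The clusters differed far more than the libraries did. That ratio joined clusters that went opposite ways. H19 was higher in KO in the Adam12 and Thbs4 clusters and lower in KO in the Stra6 cluster. In the Adam12 cluster H19 reached 613 CPM in KO and 495 CPM in WT, in the Stra6 cluster 232 and 294 CPM, in the Thbs4 cluster 306 and 210 CPM, in the Pi16 cluster 57.3 and 58.7 CPM, and in the Vit cluster 8.45 and 5.82 CPM. H19 was also uneven among the cells of a cluster. In the Adam12 cluster, 40.6% of KO cells and 38.4% of WT cells held H19, and the 16.5% of KO cells and 15.6% of WT cells with at least 10 UMIs held 85.9% and 88.7% of its UMIs. The highest cell held 130 UMIs in KO and 144 in WT. T cells were taken as a class that should lack H19, and 1.17% of KO T cells and 1.44% of WT T cells had a UMI of it. The median T cell had 4668 UMIs in KO and 5190 in WT, and the median Adam12 cell 9489 and 12061.

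Igf2, the growth factor beside H19, was sparse in fibroblasts, with 123 UMIs (3.17 CPM, 2.64 to 3.78) in KO and 347 UMIs (8.17 CPM, 7.33 to 9.07) in WT, a log2 ratio of -1.14. A few cells carried much of it. The 5 KO fibroblasts with most Igf2 held 31.7% of its UMIs and the 5 such WT fibroblasts 53.9%, and 1 WT cell of the Adam12 cluster held 142 of the 347. Without those 5 cells in each library the levels were 2.17 CPM in KO and 3.77 CPM in WT, and the log2 ratio was -0.59. By cluster, Igf2 stood at 6.17 CPM in KO and 19.02 CPM in WT Adam12 cells and at or under 2.73 CPM in KO and 5.62 CPM in WT cells of the Stra6, Pi16 and Vit clusters. Its highest class among those with 50 or more cells in both libraries was vascular smooth muscle in KO (19.3 CPM, 11.8 to 29.7) and vascular endothelial cells in WT (51.0 CPM, 42.6 to 60.6). In KO the next class, vascular endothelial cells at 13.1 CPM (8.40 to 19.5), did not differ from the first beyond counting error. In WT 5 endothelial cells held 61.2% of the Igf2 UMIs; without the 5 cells with most Igf2 in each class, WT endothelial cells stood at 20.4 CPM and WT smooth muscle at 27.3 CPM.

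Dlk1, a surface protein related to Notch ligands that restrains the making of fat cells, had the lowest log2 ratio of the members in fibroblasts, though not with doublets kept, where Dlk1 stood at -0.24 and Igf2 at -1.55. It had 132 UMIs (3.40 CPM, 2.85 to 4.04) in KO and 415 UMIs (9.77 CPM, 8.85 to 10.7) in WT fibroblasts, a log2 ratio of -1.29. The difference lay mostly in the Adam12 cluster, where 2.29% of KO cells and 5.85% of WT cells had a Dlk1 UMI and the level was 6.99 CPM in KO and 24.3 CPM in WT. In the Stra6 cluster it was 2.20 CPM in KO and 1.78 CPM in WT, with overlapping intervals (1.44 to 3.22 and 1.10 to 2.71). Some markers of other cells were also lower in KO in the Adam12 cluster. The 3 Rspo3-cluster markers summed to 21.9 CPM in KO, with 1 of them at 0, and 73.9 CPM in WT, with none at 0. The lower sum in KO did not lie in Rspo3 itself. Rspo3 had 1 UMI in the KO Adam12 cells with a Dlk1 UMI and 17 in the other KO Adam12 cells. In WT it had 5 and 13. The 6 skeletal muscle markers summed to 9.62 CPM in KO and 62.9 CPM in WT, with none at 0 in either. The muscle markers were lower in KO in other fibroblast clusters too, at 7.19 CPM in KO and 69.0 CPM in WT Stra6 cells. Not all lists went this way: keratinocyte markers summed to 54.6 CPM in KO and 38.0 CPM in WT Adam12 cells. The part of such markers in the Dlk1 and Igf2 differences was not tested. The summed level of a class does not tell fewer cells of a kind from less RNA per cell. In the Adam12 cells with a Dlk1 UMI, 27 in KO and 65 in WT, Dlk1 stood at 308 and 467 CPM. Those cells were picked by that UMI, and which of these lay behind the lower sum was not tested. Outside the named classes, the 659 WT cells of the Rspo3 cluster held 917 Dlk1 UMIs (126 CPM, 118 to 134), in 20.6% of the cells, and the 15 KO cells held 28 (195 CPM, 130 to 282). Meg3 stood there at 984 CPM in KO and 722 CPM in WT, Cdkn1c at 286 and 93.1 CPM, Plagl1 at 154 and 136 CPM, Grb10 at 140 and 71.0 CPM, Peg3 at 126 and 57.8 CPM and H19 at 105 and 49.5 CPM.

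Among Adam12 fibroblasts, the cells with a Dlk1 UMI, 27 in KO and 65 in WT, differed from the rest of the cluster in several members. Mest stood at 59.99 CPM in those KO cells, against 26.8 CPM in the other 1150 KO cells of the cluster, and at 126 CPM in those WT cells, against 28.8 CPM in the other 1047 WT cells. Asb4, an imprinted gene outside the 10 members, stood at 44.0 against 6.78 CPM in KO and at 113 against 15.4 CPM in WT. The 27 KO cells held only 15 UMIs of Mest and 11 of Asb4. Meg3 was higher in the cells with Dlk1 in both libraries, at 1344 against 805 CPM in KO and 1743 against 1152 CPM in WT, and Cdkn1c lower, at 216 against 262 CPM and 139 against 195 CPM. Igf2, Peg3, Zim1 and Grb10 were also higher in the cells with Dlk1 in both libraries. The KO cells with Dlk1 held only 5 UMIs of Igf2, 17 of Zim1 and 20 of Grb10. H19 and Plagl1 did not keep 1 direction. H19 stood at 312 against 620 CPM in KO and 585 against 490 CPM in WT. Plagl1 stood at 88.0 against 91.8 CPM in KO and 281 against 102 CPM in WT. Adam12 itself was lower in the cells with Dlk1, at 64.0 against 168 CPM in KO and 61.6 against 181 CPM in WT. Median depth was no higher in the cells with Dlk1 (8349 UMIs in KO and 9937 in WT) than in the others (9542 in KO and 12180 in WT). These cells were picked by Dlk1 alone and the contrast has no test.

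Meg3, the noncoding RNA read from the maternal copy of the Dlk1 locus, was found in 81.4% of KO fibroblasts and 85.8% of WT fibroblasts. Its level was 752 CPM (743 to 761) in KO and 1046 CPM (1036 to 1056) in WT, a log2 ratio of -0.48. It was lower in KO than in WT in 5 of the 6 clusters, by 0.30 to 0.63 on the log2 scale, and higher in the Thbs4 cluster (878 CPM in KO and 712 CPM in WT). The Pi16 cluster was highest, at 1118 CPM in KO and 1732 CPM in WT, then Adam12 at 817 and 1183 CPM, with Stra6 at 529 and 650 CPM and Vit at 381 and 522 CPM. The Adam12 and Thbs4 clusters in KO, at 801 to 834 and 829 to 929 CPM, overlapped within counting error. Among T cells, 2.20% in KO and 7.55% in WT held Meg3, at 18.4 and 37.4 CPM. Per 1000 UMIs of 7 fibroblast marker genes, that was 22.6 Meg3 UMIs in KO and 17.7 in WT T cells, against 13.7 in KO and 16.9 in WT fibroblasts.

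Peg3, a zinc finger protein read from the paternal copy, and its neighbour Zim1, a zinc finger protein read from the maternal copy, were both higher in KO. Peg3 stood at 120 CPM (117 to 123) in KO fibroblasts and 91.4 CPM (88.6 to 94.3) in WT fibroblasts, and Zim1 at 22.9 CPM (21.4 to 24.5) in KO and 15.9 CPM (14.7 to 17.2) in WT. The log2 ratios were 0.39 and 0.50. Peg3 was above 0 on that scale in all 6 clusters, at 0.01 in Pi16 and up to 0.82 in Thbs4, and Zim1 in the 5 clusters where it was measured, from 0.35 to 1.02. Both were higher in Adam12 than in Pi16 cells. Adam12 held 169 CPM of Peg3 in KO and 120 CPM in WT and 45.3 and 29.8 CPM of Zim1. Pi16 held 46.3 and 46.1 CPM of Peg3 and 6.04 and 4.37 CPM of Zim1. The full order of clusters was not the same. In KO, Thbs4 cells stood about as high as Adam12 cells in Peg3. Without the 5 cells with most Zim1, KO Adam12 cells held 42.5 CPM of Zim1 and KO Thbs4 cells 25.8 CPM.

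Cdkn1c, an inhibitor of the kinases that drive the cell cycle, stood at 248 CPM (244 to 253) in KO fibroblasts and 175 CPM (171 to 179) in WT fibroblasts, a log2 ratio of 0.50. The difference had 1 direction in all 6 clusters, from less than 0.01 in the Ifit1 cluster to 0.57 in the Stra6 cluster. The Stra6 cluster was highest, with 431 CPM in KO and 290 CPM in WT, and Cdkn1c was found there in 85.3% of KO cells and 77.4% of WT cells. Adam12 followed with 261 CPM in KO and 192 CPM in WT, and the Vit cluster had 41.7 and 31.9 CPM. Mki67, a mark of dividing cells, stood at 0.67 CPM in KO and 0.68 CPM in WT fibroblasts, on 26 and 29 UMIs. It was 1 of 7 measured cell cycle genes, of which 5 lay below 0 and 2 above. Ccnb1 stood at 0.67 CPM in KO and 2.45 CPM in WT, on 26 and 104 UMIs. Whether cell division differed was not tested.

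Plagl1, a zinc finger factor reported to act on several other imprinted genes, stood at 64.2 CPM (61.7 to 66.8) in KO fibroblasts and 79.2 CPM (76.5 to 81.9) in WT fibroblasts, a log2 ratio of -0.30. It was lower in KO in all 6 clusters, by 0.13 (Pi16) to 1.17 (Ifit1, 13 and 23 UMIs). Grb10, an adaptor that dampens insulin and IGF receptor signals, was level, at 86.8 CPM (83.9 to 89.8) in KO and 88.1 CPM (85.3 to 91.0) in WT. It was highest in the Pi16 cluster, with 167 CPM in KO and 179 CPM in WT, and stood at 48.9 to 71.1 CPM in KO and 50.4 to 74.0 CPM in WT in the Adam12, Stra6 and Vit clusters. Mest, an enzyme of the hydrolase family linked to fat cell growth, was level over all fibroblasts, at 22.3 CPM (20.8 to 23.8) in KO and 22.5 CPM (21.1 to 24.0) in WT. The clusters differed in direction, with 27.8 CPM in KO and 15.5 CPM in WT in Stra6 cells but 27.5 CPM in KO and 33.9 CPM in WT in Adam12 cells and 5.93 and 9.16 CPM in Pi16 cells. Copg2, on the other strand, overlaps the annotated Mest gene, and whether the counting used strand is not given in the sources used here.

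**Figure D3:**
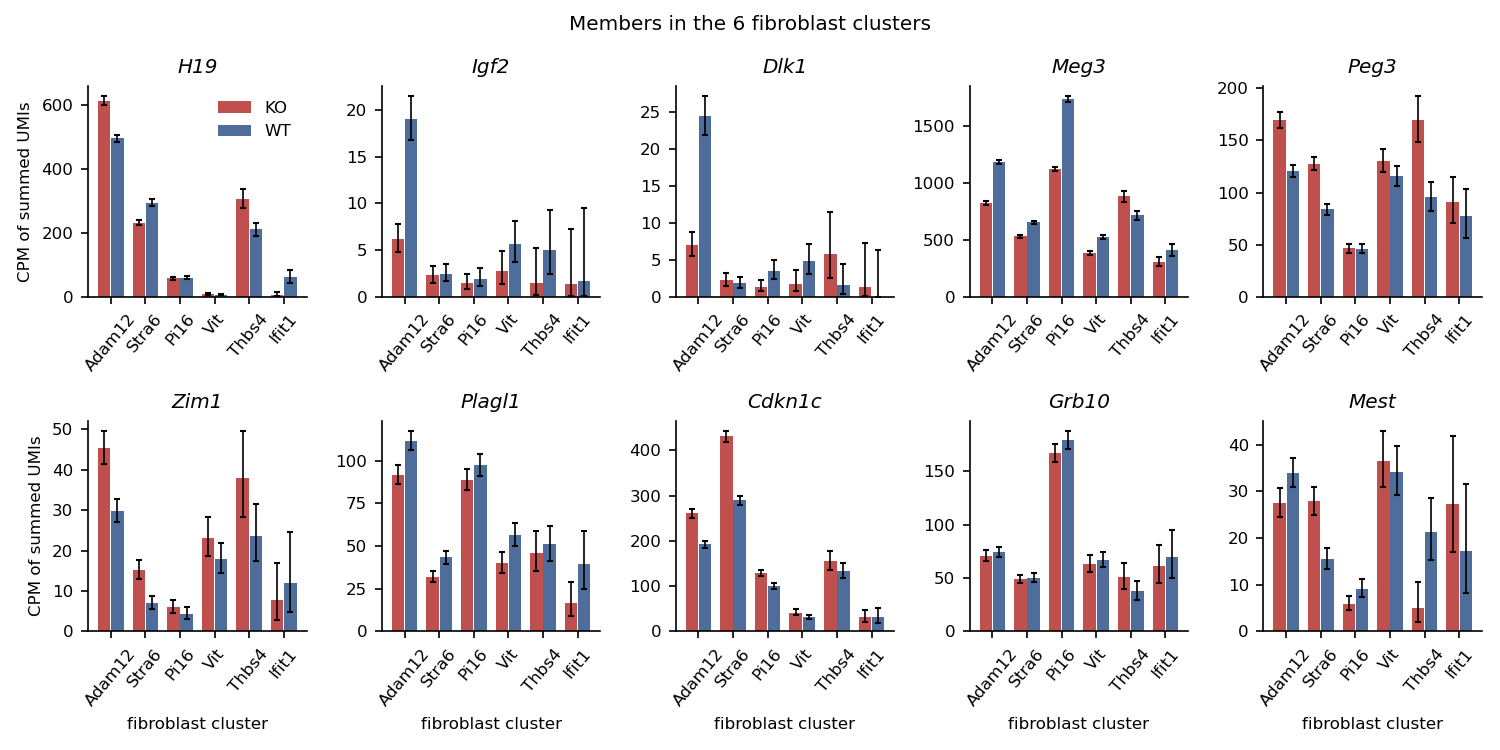
Level of each member in the 6 fibroblast clusters in CPM of summed UMIs, KO left and WT right of each pair, with exact 95% Poisson intervals for counting error. H19, Igf2, Dlk1 and Zim1 are highest in the Adam12 cluster in WT, Cdkn1c in the Stra6 cluster, and Meg3 and Grb10 in the Pi16 cluster.

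The Adam12 cluster stood out among fibroblasts for 4 members. H19, Igf2, Dlk1 and Zim1 were at least 2-fold higher there than in all other fibroblasts in both libraries, against 0.839% of 14772 genes measured, but H19 and Zim1 were also among the 10 leading genes of that cluster, so the count supports nothing by itself. The log2 ratio of Adam12 cells to other fibroblasts was 2.17 in KO and 1.65 in WT for H19, 1.62 and 1.58 for Zim1, 1.42 and 2.73 for Dlk1 and 1.27 and 2.33 for Igf2. Without the 5 Adam12 cells of each library with most UMIs of the member, Igf2 stood at 0.39 in KO and 0.69 in WT and Dlk1 at 0.70 and 2.24, so that H19 and Zim1 alone stayed past 2-fold in both libraries. Grb10 was lower there, at -0.38 in KO and -0.35 in WT, and the other 5 members lay between 0.10 and 0.95.

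Between the libraries, 2 of 10 members, Igf2 and Dlk1, were at least 2-fold apart in fibroblasts, both lower in KO, against 0.778% of the 14772 genes measured in either direction and 0.657% lower in KO. They were the members with the fewest UMIs. The median log2 ratio of the members was -0.02, beside -0.06 over all genes measured, and 4 members lay above 0 and 6 below. In the Adam12 cluster the same 2 members passed 2-fold, against 1.62% of genes, although Igf2 stood at -0.71 without the 5 cells of each library with most of it; in the Stra6 cluster Zim1 alone, higher in KO, against 1.13%, in the Pi16 cluster no member, against 2.14%, and in the Vit cluster Dlk1 alone (7 UMIs in KO and 24 in WT), against 3.03%. In the smaller Thbs4 cluster Mest alone of 8 measured members passed, on 7 UMIs in KO and 42 in WT, against 3.91% of genes. In the Ifit1 cluster H19 and Plagl1 passed, of 7 measured members and against 8.68% of genes, and 1 of its 53 WT cells held 32 of the 35 WT H19 UMIs. Without the 5 cells of each library with most UMIs of the member, too few UMIs to measure were left of Dlk1 in the Vit cluster (2 in KO and 2 in WT), of Mest in the Thbs4 cluster (1 and 13) and of H19 (0 and 0) and Plagl1 (5 and 6) in the Ifit1 cluster. Members that kept 1 direction in the Adam12, Stra6, Pi16 and Vit clusters were Igf2, Meg3, Plagl1 and Grb10, below 0, and Peg3, Zim1 and Cdkn1c, above 0, with Grb10 within 0.10 of 0. Igf2 did not keep it in the Pi16 cluster without the 5 cells of each library with most of it. The ratio there was then 0.05, on 9 UMIs in KO and 8 in WT, too few to measure.

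**Figure D4:**
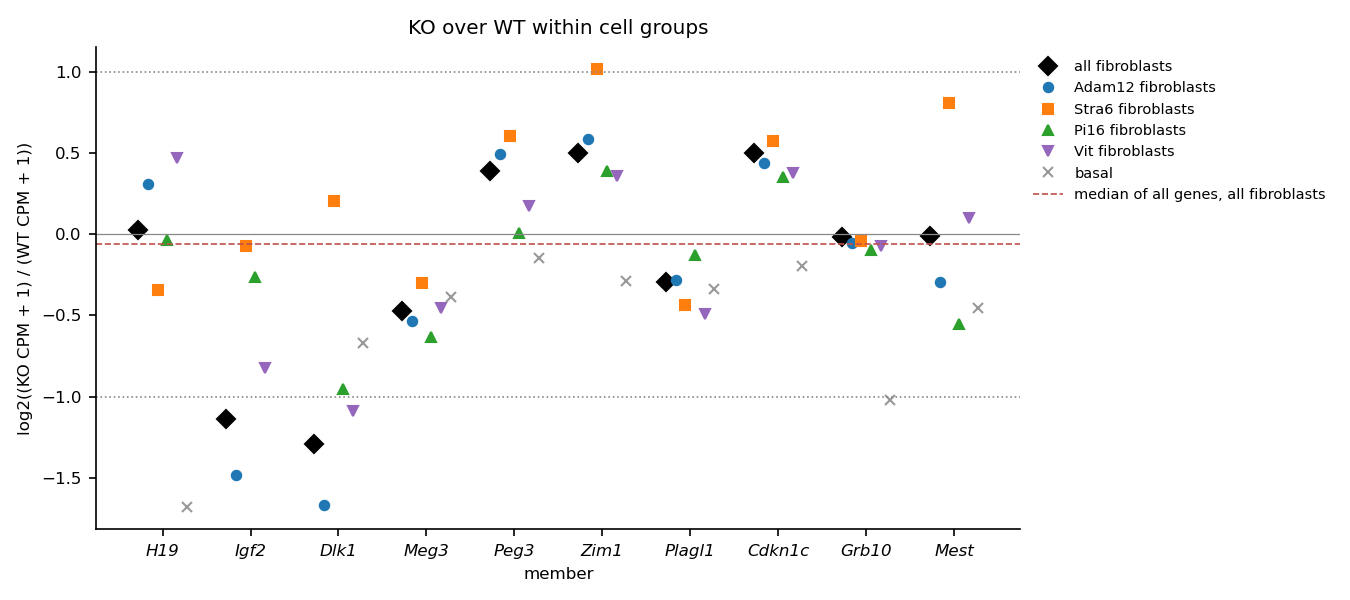
Log2 ratio of KO to WT, with 1 CPM added, for each member in all fibroblasts, in the 4 larger fibroblast clusters and in basal cells; dotted lines mark 2-fold and the dashed line the median of all genes in fibroblasts, -0.06. Igf2 and Dlk1 lie below the 2-fold line in all fibroblasts, at -1.14 and -1.29, and every basal point lies below 0.

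Basal cells, the contractile outer layer of the gland, were the epithelial class with most of these transcripts. Meg3 stood at 81.6 CPM in KO and 107 CPM in WT, Cdkn1c at 66.8 and 76.6 CPM, Peg3 at 33.2 and 36.8 CPM Mest at 20.5 and 28.5 CPM and Plagl1 at 11.3 and 14.5 CPM. Dlk1 stood at 1.75 and 3.37 CPM, Zim1 at 0.51 and 0.84 CPM, and Igf2, with 12 UMIs in all, was not measured. All 9 measured members had a log2 ratio below 0, from -1.68 (H19) to -0.14 (Peg3), with a median of -0.38 beside -0.06 over 14296 genes, of which 58.9% lay below 0. H19 and Grb10 passed 2-fold, at 2.76 CPM in KO and 11.04 CPM in WT and at 1.41 and 3.89 CPM, against 1.57% of genes in either direction. The 7 fibroblast markers moved the same way in basal cells, summing to 554 CPM in KO and 1307 CPM in WT. Per 1000 of those marker UMIs there were 121 Cdkn1c UMIs in KO and 58.6 in WT basal cells, against 4.53 in KO and 2.84 in WT fibroblasts, and 37.0 and 21.8 Mest UMIs, against 0.407 and 0.364. H19 had 4.98 UMIs per 1000 in KO and 8.45 in WT basal cells, beside 4.95 in KO and 4.30 in WT fibroblasts.

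Luminal cells held little. In luminal progenitors Plagl1 stood at 11.5 CPM in KO and 12.2 CPM in WT, Peg3 at 10.99 and 10.7 CPM and Grb10 at 9.35 and 11.1 CPM, and in hormone-sensing cells the same 3 members stood at 4.24 and 5.22, 1.43 and 3.29, and 1.28 and 1.62 CPM. Cdkn1c stood at 4.83 CPM in KO and 2.51 CPM in WT luminal progenitors and at 1.87 and 2.59 CPM in hormone-sensing cells, and Igf2, Dlk1, Zim1 and Mest stood under 1 CPM in both classes and libraries. In luminal progenitors 2 of 6 measured members passed 2-fold, against 1.67% of genes: H19, at 8.62 CPM in KO and 2.51 CPM in WT, and Meg3, at 5.06 and 15.6 CPM. In the hormone-sensing class Meg3 alone of 7 passed, at 2.16 CPM in KO and 7.04 CPM in WT, against 1.31% of genes. The fibroblast markers again moved with Meg3, at 261 CPM in KO and 573 CPM in WT luminal progenitors and 153 and 310 CPM in hormone-sensing cells, and Meg3 per 1000 of their UMIs was 19.4 in KO and 27.2 in WT luminal progenitors, beside 13.7 and 16.9 in fibroblasts. H19 went against them in luminal progenitors, where 5 cells held 83.1% of its 189 KO UMIs and 61.5% of its 39 WT UMIs; without them the log2 ratio was 0.33. H19 in hormone-sensing cells stood at 18.7 CPM in KO and 13.8 CPM in WT. At 3000 UMIs per cell, 2.82% of KO and 2.20% of WT hormone-sensing cells had an H19 UMI, against 0.794% of KO and 0.784% of WT T cells.

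Vascular cells shared several members with fibroblasts. In vascular endothelial cells Cdkn1c stood at 71.6 CPM in KO and 67.2 CPM in WT, Grb10 at 55.7 and 60.1 CPM and Mest at 43.7 and 34.8 CPM, each with overlapping intervals. Meg3 stood there at 27.9 CPM in KO and 113 CPM in WT, and Dlk1 had 0 UMIs in 232 KO cells, which allows up to 1.64 CPM at 3 counts, and 47 in 275 WT cells, with 80.9% of them in 5 cells. There 4 of 9 measured members, H19, Igf2, Dlk1 and Meg3, were at least 2-fold lower in KO, against 7.42% of genes in either direction and 6.06% lower in KO, and the fibroblast markers summed to 1152 CPM in KO and 3678 CPM in WT in this class. In vascular smooth muscle Meg3 stood at 128 CPM in KO and 132 CPM in WT and Plagl1 at 59.7 and 84.9 CPM, and H19 alone of 7 members passed 2-fold, at 3.85 and 21.2 CPM, against 9.19% of genes. In that class 5 WT cells held 88.1% of the 84 H19 UMIs, 10 UMIs were left in WT and 0 in KO without the 5 such cells of each library, and the fibroblast markers summed to 1390 CPM in KO and 4344 CPM in WT. Skeletal muscle-like cells, 6 in KO and 64 in WT, held the highest H19 level of any named class, at 1792 CPM (1338 to 2350) in KO and 1652 CPM (1545 to 1765) in WT. All 6 KO cells and 98.4% of the WT cells held it. Igf2 was at 105 CPM (79.5 to 137), Cdkn1c at 80.8 CPM and Meg3 at 71.4 CPM in the WT cells, while all 3 were at 0 in the 6 KO cells, which allows up to 103 CPM at 3 counts, so that no difference was detectable at this depth. Peg3 reached 84.0 CPM (77.3 to 91.1) in the 300 WT keratinocytes. In the 29 WT mesothelial cells Meg3 stood at 407 CPM, Grb10 at 113 CPM, Cdkn1c at 70.4 CPM and Plagl1 at 58.2 CPM, and in the 32 KO and 33 WT Schwann cells Cdkn1c stood at 227 and 114 CPM, H19 at 202 and 54.7 CPM, Meg3 at 184 and 214 CPM and Grb10 at 73.6 and 34.8 CPM.

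In immune cells Meg3 alone reached 50 CPM. It stood at 97.6 CPM (83.8 to 113) in KO and 287 CPM (256 to 322) in WT B cells, where 5 cells held 55.4% of its UMIs in KO and 70.1% in WT and the fibroblast markers summed to 6848 and 8218 CPM. In neutrophils it stood at 12.3 CPM in KO and 83.4 CPM in WT, in monocytes at 46.3 and 77.5 CPM, in mast cells at 13.4 and 77.1 CPM and in mature dendritic cells at 25.8 and 73.0 CPM, with 82.7 to 100% of the UMIs of each library in 5 cells. The part of fibroblast RNA in these levels was not tested.

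Across fibroblasts most pairs of members had correlations near 0. Each cell was thinned to 3000 UMIs so that depth could not link the genes. This left 4123 KO and 3413 WT cells and set aside 447 and 410 shallower ones. The loss was uneven, with 283 of 818 KO and 199 of 756 WT cells set aside in the Vit cluster. In the Stra6 cluster it was 24 of 1216 and 55 of 1002. Over the 45 pairs the median Pearson r was 0.02 in KO and 0.02 in WT, and 4 pairs in KO and 5 in WT reached 0.1. Cells of 1 library share their animals and their processing, the counts are sparse, and the values are given as a description. The highest r was that of H19 and Cdkn1c, at 0.18 in KO and 0.18 in WT, and 8.66% of KO cells and 7.56% of WT cells held both, where independent draws would give 6.13% and 5.00%. Within the clusters that pair stood at 0.21 in KO and 0.19 in WT in Adam12 cells, at 0.11 and 0.08 in Stra6 cells, at 0.01 and 0.08 in Pi16 cells and at 0.12 and 0.09 in Vit cells. Peg3 and Zim1 stood at 0.15 in KO, next after that pair, and at 0.11 in WT, where Dlk1 with Mest and Meg3 with Plagl1 were higher. Zim1 was found in 11.7% of KO cells that held Peg3 and 3.98% of those that did not, and in 8.36% and 3.49% of such WT cells. Meg3 stood at 0.11 in KO and 0.10 in WT with Grb10, and at 0.10 and 0.11 with Plagl1. Both pairs were lower within clusters. Meg3 with Grb10 stood at 0.07 in KO and 0.03 in WT in Adam12 cells and 0.02 and 0.00 in Pi16 cells. Meg3 with Plagl1 stood at 0.08 in KO and 0.07 in WT in Adam12 cells and 0.03 and 0.06 in Pi16 cells. Dlk1 and Mest stood at 0.05 in KO and 0.16 in WT, with both genes in 6 KO and 19 WT cells. H19 and Igf2, of 1 locus, stood at 0.06 in KO and 0.04 in WT, and Dlk1 and Meg3, of another, at 0.06 and 0.08.

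**Figure D5:**
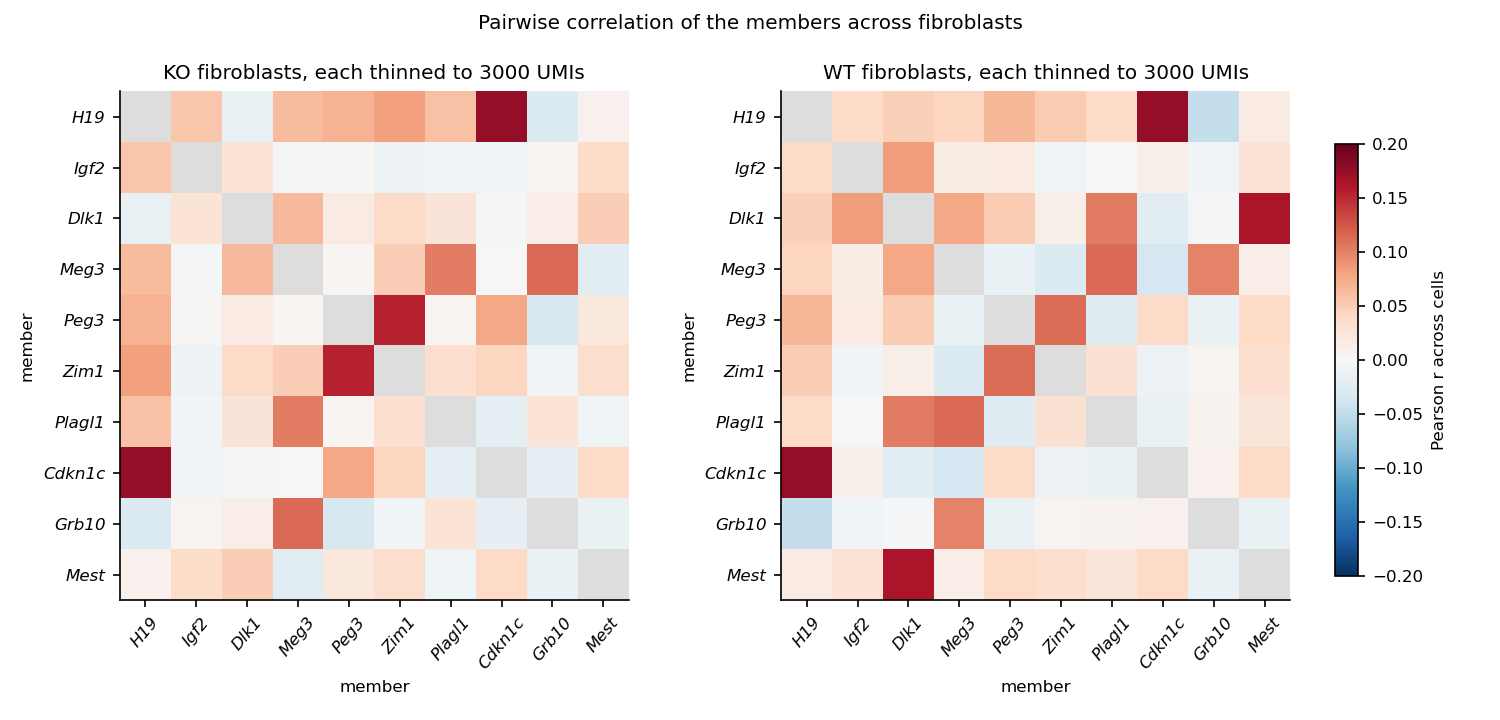
Pearson r across fibroblasts for each pair of members, KO left and WT right, with cells thinned to 3000 UMIs and a colour scale from -0.2 to 0.2. Most squares are pale; H19 with Cdkn1c (0.18 and 0.18) and Peg3 with Zim1 (0.15 and 0.11) stand out in both libraries, and Dlk1 with Mest in WT (0.16).

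Genes outside the set reached a higher r with some members than the other members did. They were the best of 3456 genes, a far larger search than that among members, so a closer link was not tested. For the 8 members with a UMI in at least 5% of fibroblasts of both libraries, the genes with the highest lower r of the libraries were sought among 3456 genes. Meg3 was most like Rian, the noncoding RNA downstream of it, with r of 0.40 in KO and 0.44 in WT, and then like Pi16, Sema3c, Anxa3 and Fbn1 (0.27 to 0.32). H19 was most like Postn, a matrix protein, at 0.24 in KO and 0.27 in WT, and then Col18a1, Col5a3, Lamb1 and Adam12. Cdkn1c was also most like Postn, at 0.36 in KO and 0.32 in WT, then Hc, Sdc1, Ccdc80 and Col18a1. Grb10 was most like Pi16, at 0.26 in KO and 0.24 in WT, then Sema3c, C3, Ackr3 and Dpp4, of which Pi16, Sema3c and Dpp4 are markers of the Pi16 cluster. For Peg3 the first gene was Adamts12 (0.10 in KO and 0.10 in WT) and for Zim1 Col3a1 (0.12 and 0.10). For Plagl1 it was Gfpt2 (0.09 and 0.09) and for Mest Col3a1 (0.09 and 0.08). These values were too weak to name a companion. The search left out the members themselves. Peg3 and Zim1 had a higher r with each other (0.15 in KO and 0.11 in WT) than with the genes named for them. Plagl1 had a higher r with Meg3 (0.10 and 0.11) than with Gfpt2. By the lower r of the libraries, H19 was more like Cdkn1c (0.18 in KO and 0.18 in WT) than Lamb1 or Adam12. Those genes stood at 0.20 and 0.19 in KO and at 0.17 and 0.17 in WT.

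Of 53 other imprinted genes listed, 41 were measured in fibroblasts, none was at least 2-fold apart between the libraries with 1 CPM added, 13 lay above 0 and 28 below, and the median log2 ratio was -0.08, beside -0.06 over all genes. The lowest was Asb4, at 4.12 CPM in KO and 8.47 CPM in WT (-0.89, and -1.02 and past 2-fold with 0.1 CPM added), and the highest Snrpn, at 3.79 and 2.14 CPM (0.61). Rian and Mirg, noncoding RNAs of the Meg3 locus, stood at 165 CPM in KO and 213 CPM in WT and at 35.6 and 46.5 CPM, with log2 ratios of -0.36 and -0.37 beside -0.48 for Meg3. Of 11 measured IGF receptors and binding proteins none passed 2-fold, with a median of -0.01: the RNA-binding proteins Igf2bp3 and Igf2bp2 were the ends of the range, at 2.66 CPM in KO and 1.51 CPM in WT (0.54) and at 107.9 and 139 CPM (-0.36). Of 10 measured genes that keep imprints none passed and 9 lay below 0, led by Trim28 at 62.3 CPM in KO and 83.7 CPM in WT (-0.42). All 6 measured relatives of the members by sequence lay below 0, with a median of -0.17. The lowest was Plag1 (-0.32, 17 UMIs in KO and 34 in WT), and the one of the highest level was Igf1, the other IGF ligand, at 436 CPM in KO and 497 CPM in WT (-0.19). All 4 measured reported regulators of H19 and Igf2 lay below 0 (median -0.17). The lowest was Hmga2 (-0.32, 7 UMIs in KO and 20 in WT), at -1.025 and past 2-fold with 0.1 CPM added. Of 7 measured cell cycle genes 1 passed 2-fold (Ccnb1, 26 UMIs in KO and 104 in WT), and of 9 dissociation and early response genes none passed (median -0.12). Across the fibroblast class 59.5% of all genes measured lay below 0.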

How the data were processed

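The authors deposited raw counts of UMIs per gene and cell barcode, 1 matrix per library. Per the submitters' processing notes, Cell Ranger 5.0.1, Seurat 3.2.0 and build mm10 were used; the annotation release and the strand setting are not given in the sources used here. Per the labels' protocols, dissociated cells were sorted as DAPI-negative and libraries were made with a 10x 3′ kit. The KO matrix held 11442 barcodes and 139757797 UMIs, and the WT matrix 12291 barcodes and 160026788 UMIs. Kept barcodes had no fewer than 500 genes and 1000 UMIs, and no more than 10% of UMIs from mitochondrial genes (10907 KO and 10984 WT), and Scrublet in scanpy 1.11.5 marked 455 KO and 207 WT cells as doublets, which were left out. The remaining cells were clustered (2000 variable genes, 30 components, 20 neighbours, Leiden resolution 1). Clusters were named from marker lists, with limits on fold and share set after the clusters were seen; a cluster with markers of 2 types or too few stayed unnamed. The members and lists were chosen with earlier results of these data known.

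Counts were summed per library and class and divided by the summed UMIs to give CPM; ratios had 1 CPM added. A gene was called measured with at least 20 UMIs over both libraries in the class. Intervals are exact Poisson for levels and Clopper-Pearson for shares, at 95%. No test was made, and size (2-fold) replaced it. Correlations used fibroblasts thinned to 3000 UMIs. Only the fibroblast ratio of KO to WT and the correlation across cells were tested on simulated data. Of 200 genes changed 4-fold, 199 passed 2-fold, and 0 unchanged genes did. The r of independent genes was 0.52 not thinned and 0.01 thinned, and that of linked genes 0.87 and 0.45. Filtering, doublet calls, clustering and naming were not simulated. By rule, all members were described in fibroblasts and their clusters (some clusters in the plots alone) and in the 3 epithelial classes, and in other named classes where they reached 50 CPM in 1 library; others named there were chosen after their values were seen. Genes most like a member were sought outside the set, among genes with at least 1000 thinned UMIs. The 5 with the highest lower r of the libraries were taken. List genes were named at the ends of their range or at the highest level, and Rian, Mirg and Ccnb1 after their values were seen. Sequences came from RefSeq tables of GRCm38.p6; 8 members had a promoter entry, and H19 and Cdkn1c did not. Alternatives were other filters, clusterings, scalings, added constants and depths, with edgeR 4.0.16 used for TMM factors alone.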

Additional observations from a re-analysis of the deposited data

Results flagged for a closer look

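H19 ran in opposite directions between the genotypes in epithelial classes. Its log2 ratio of KO to WT was 1.46 in luminal progenitors (8.62 CPM in KO and 2.51 CPM in WT) and -1.68 in basal cells (2.76 and 11.04 CPM). A few cells carried these levels: 1 KO luminal progenitor held 61 of 189 UMIs, and 1 WT basal cell 43 of 301, and without the 5 cells of each library with most H19 the ratios were 0.33 and -1.30. The difference between the classes was not tested.

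Peg3 had a log2 ratio of 0.82 in the Thbs4 fibroblasts (170 CPM in KO and 95.3 CPM in WT, from 120 and 140 cells) and -0.82 in hormone-sensing luminal cells (1.43 and 3.29 CPM). This difference was not tested either.

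Dlk1 reached 126 CPM in WT cells of the Rspo3 cluster, which the fibroblast comparison left out. The cluster's 15 KO cells are too few to set beside its 659 WT cells, and with 1 library per genotype sampling and genotype cannot be told apart.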

How the results depend on the processing

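No paired analysis was possible because each genotype has 1 library. The median log2 ratio of the members in fibroblasts, -0.02, became -0.13 with doublets kept and 0.071 with TMM factors. The count of members past 2-fold, 2, became 1 with doublets kept, at Leiden resolution 2, with a mean over cells of CPM per cell and without the 5 fibroblasts with most UMIs of the member, and 0 with 5 CPM added and as a mean over 4 clusters of the ratio within the cluster. Not thinned, the median correlation was 0.063 in KO and 0.10 in WT. The share of member UMIs in fibroblasts became 81.0% in KO and 69.3% in WT with all barcodes, 87.5% and 74.1% with at most 5% mitochondrial UMIs, 62.0% and 53.6% with doublets kept, 84.9% and 76.0% at resolution 2, 79.3% and 68.9% with cells classed one by one, 87.3% and 81.4% with the Rspo3 cluster counted as fibroblasts, and 83.1% and 69.6% without the Thbs4 and Ifit1 clusters.

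Over 16 alternatives, Dlk1 stayed below 0 in all (-2.44 to -0.24, which was the value with doublets kept) and past 2-fold in 13. Igf2 stayed below 0 in all (-1.55 to -0.59) and past 2-fold in 11. The alternatives that counted members with at least 100 UMIs, or with any UMI, left each ratio at its main value by design. They are included in these counts but could not change them. Meg3 (-0.50 to -0.39) and Plagl1 (-0.46 to -0.21) stayed below 0, and Peg3 (0.32 to 0.50), Zim1 (0.42 to 0.70) and Cdkn1c (0.43 to 0.60) above it. H19 was below 0 in 1, at -0.27 with doublets kept, and Grb10 and Mest changed sign near 0. With doublets kept a fibroblast cluster lost its name; the alternatives with the Rspo3 cluster, without the 5 cells, over 4 clusters, without the Thbs4 and Ifit1 clusters, without 5 cells in each class and with 0.1 CPM added for listed genes were chosen after seeing the data. With 1 library per genotype, animal, processing and genotype cannot be told apart, and few UMIs limit Igf2 and Dlk1.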
